A study of Homo sapiens with 4 samples.

Results

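Amino acid transporters of the plasma membrane, with the cystine importer SLC7A11 among them, were followed in HaCaT keratinocytes in which TYMP was overexpressed. The 10 genes (SLC7A11, SLC7A5, SLC3A2, SLC7A1, SLC1A4, SLC1A5, SLC38A1, SLC38A2, SLC6A9 and SLC43A1) were found by their symbols among 55536 genes of the deposited table, 1 row each. HaCaT is an established human keratinocyte line, and TYMP encodes thymidine phosphorylase, which splits thymidine. Polyadenylated RNA was sequenced from 2 libraries of HaCaT cells labelled as TYMP overexpression, for which a lentivirus was used to make a stable line, and from 2 libraries of HaCaT cells labelled NC. The labels do not spell out NC, and they describe neither the vector, nor its promoter, nor whether replicate libraries stem from different cultures. The p-values therefore reflect only the spread between these libraries, which may be technical. Cells were harvested in Trizol after 48 hours.

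Cells take up most amino acids through exchangers and sodium-coupled carriers whose substrates overlap. SLC7A11 imports cystine in exchange for glutamate and so supplies cysteine for glutathione, and SLC7A5 imports leucine and other large neutral amino acids. Both are light chains that reach the cell surface when bound to SLC3A2, their common heavy chain. Many genes of this group are known targets of ATF4, a transcription factor of the amino acid and stress response, and SLC7A11 is also a known target of the antioxidant factor NRF2.

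Libraries held between 16209663 and 17000821 counted reads. TYMP itself had 75.8 and 64.8 CPM in the TYMP libraries, against 16.7 and 15.9 CPM in the NC libraries, where CPM is the usual depth-normalised count after TMM scaling, an adjustment for differences in RNA composition. The 8 keratinocyte markers were all detected and summed to 12152 and 11641 CPM (without TMM scaling, here and for the other markers) in the TYMP libraries, against 9680 and 8657 in the NC libraries. KRT5 had the most reads of the 8, at 61922 and 59632 in the TYMP libraries, against 44836 and 39686 in the NC libraries. Reads of ITGB4 (8875 and 8015 in TYMP, 9384 and 7671 in NC) overlapped between the groups. Those of SFN also overlapped, and those of the other keratinocyte markers were higher in both TYMP libraries. Mitochondrially encoded genes took 5.09% and 4.46% of reads in the TYMP libraries, against 4.25% and 4.24% in the NC libraries. The keratinocyte marker sum and the mitochondrial share differed between the groups alongside the changes described next, and their part in them was not tested. Markers of other cell types were low: the 6 fibroblast markers summed to 8.82 and 6.64 CPM in the TYMP libraries, against 5.24 and 4.27 in the NC libraries, with COL3A1 and PDGFRA at 0 in every library. The 5 melanocyte markers, led by MITF and with TYR at 0, summed to between 17.0 and 26.8 CPM over the 4 libraries, and the 4 endothelial and 4 leukocyte markers to between 2.53 and 6.23.

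SLC7A11 and SLC1A5 were lower in the TYMP libraries, and the other 8 genes were not called. The threshold was an adjusted p under 0.05 in edgeR's quasi-likelihood test, adjusted over all 14380 genes tested, and all 10 transporter genes passed its filter on low counts. It called 2 of the 10, both lower, beside 3.32% of all tested genes called in either direction and 1.23% called lower. The log2 fold change, given throughout as TYMP over NC, was below 0 for 9 of the 10 (SLC6A9 was the exception), beside 50.9% of all tested genes, and its median was -0.14 beside -0.0051 over all tested genes. The 10 genes and the lists below were chosen with earlier results of these data known, so such comparisons with all tested genes are description only. In bulk RNA, fewer cells that express a gene and less of its RNA per cell cannot be told apart.

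**Figure D1:**
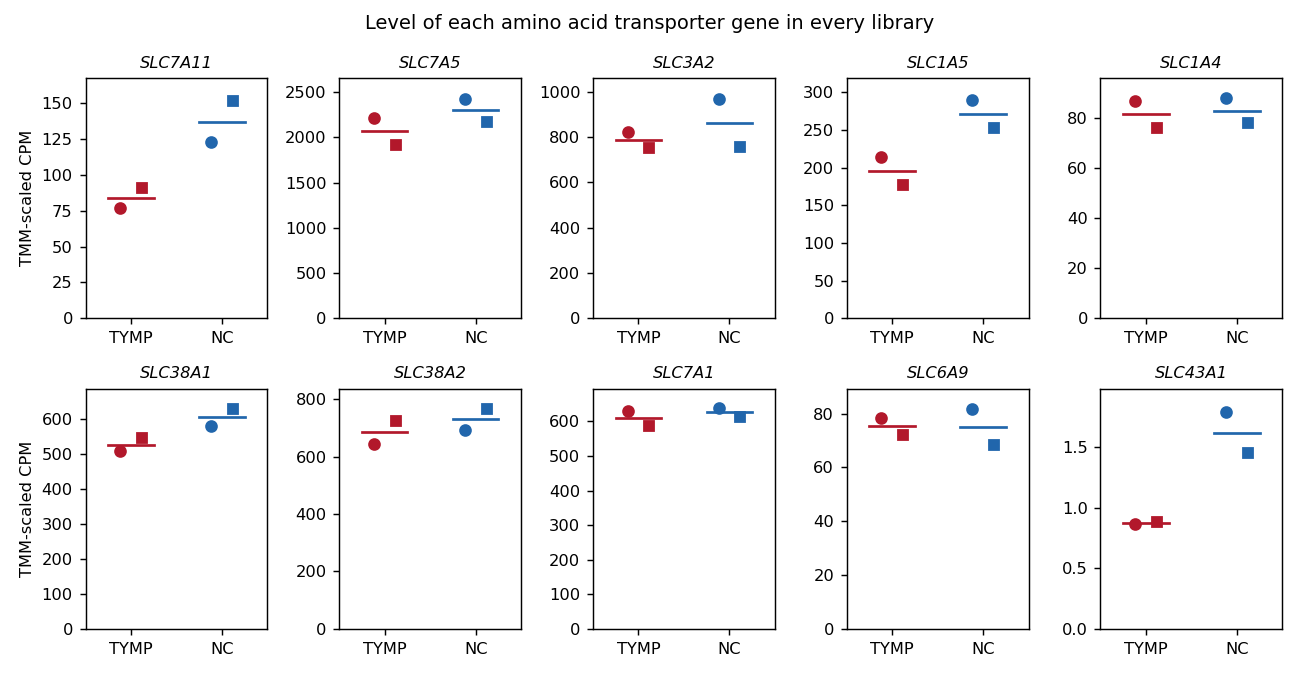
Level of each transporter gene in TMM-scaled CPM (y axis, from 0) in the TYMP and NC libraries, with a circle for replicate 1, a square for replicate 2 and a line at the mean of 2 libraries. Both TYMP libraries lie below both NC libraries in 4 panels, SLC7A11, SLC1A5, SLC38A1 and SLC43A1.

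SLC7A11 (GRCh38 chromosome 4, 138164097 to 138242349, minus strand) had 1244 and 1543 reads in the TYMP libraries, against 2070 and 2504 in the NC libraries. Its scaled level was 77.2 and 90.9 CPM in the TYMP libraries, against 123 and 151 CPM in the NC libraries. Both TYMP libraries lay below both NC libraries, although the NC libraries differed from each other by 1.23-fold. SLC7A11 averaged 84.0 ± 9.67 CPM in TYMP and 137 ± 19.8 CPM in NC (SD, n = 2 each), and it fell by 38.7% (log2 fold change -0.71 ± 0.11 SE, 95% interval -0.95 to -0.46, edgeR adjusted p = 0.00334). The call held without each single library in turn (adjusted p of at most 0.00296). It was not made on the authors' FPKM, the length-normalised unit (limma on log2(FPKM + 1), log2 fold change -0.63, adjusted p = 0.0711). The antisense gene SLC7A11-AS1, whose annotated exons overlap those of SLC7A11, had 21 and 11 reads in the TYMP libraries, against 23 and 33 in the NC libraries. The sources used here do not give the strand setting of the counting, so reads of such antisense pairs cannot be told apart.

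SLC7A5, the leucine importer, was the most abundant of the 10 per length. It had 2219 and 1919 CPM in the TYMP libraries, against 2431 and 2173 CPM in the NC libraries, so the groups overlapped. Its log2 fold change was -0.15 (95% interval -0.34 to 0.04, edgeR adjusted p = 0.465). SLC7A5 has the near copies SLC7A5P1 and SLC7A5P2, which had 0 reads in every library. The sources used here do not say how reads with several matches were assigned, so the SLC7A5 count is uncertain to that extent. SLC3A2, the heavy chain, had 821 and 751 CPM in the TYMP libraries, against 969 and 757 CPM in the NC libraries. NC replicate 1 stood above the other 3 libraries, and the log2 fold change of SLC3A2 was -0.13 (95% interval -0.36 to 0.09, adjusted p = 0.628), with a sign that turned when that library was left out (0.06).

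The RNA of the heavy chain SLC3A2 and of the light chains SLC7A5 and SLC7A11 was compared within each library by FPKM, which uses 1 length per gene. The implied lengths were 6392 bases for SLC3A2, 4764 for SLC7A5 and 9645 for SLC7A11. The size of each ratio depends on these lengths, and RNA ratios do not give the balance of the proteins. The FPKM of SLC7A5 was 58.2 and 42.7 times that of SLC7A11 in the TYMP libraries, against 39.96 and 29.1 times in the NC libraries. The FPKM of SLC3A2 was 16.04 and 12.5 times that of SLC7A11 in the TYMP libraries, against 11.9 and 7.55 times in the NC libraries. Both TYMP libraries exceeded both NC libraries in each of these ratios. Each divides by SLC7A11, so each carries its lower level in TYMP and is not a separate result. By contrast, the ratio of SLC3A2 to SLC7A5 overlapped between the groups, at 0.276 and 0.292 in the TYMP libraries and 0.297 and 0.260 in the NC libraries. Differences in these ratios between the groups were not tested.

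SLC1A5, a sodium-dependent exchanger of glutamine and other neutral amino acids, lies at GRCh38 chromosome 19, 46774883 to 46788594, minus strand. SLC1A5 had 3455 and 2992 reads in the TYMP libraries, against 4858 and 4172 in the NC libraries. The scaled level of SLC1A5 was 214 and 176 CPM in the TYMP libraries, against 289 and 252 CPM in the NC libraries, without overlap. SLC1A5 averaged 195 ± 27.0 CPM in TYMP and 270.5 ± 26.3 CPM in NC (SD, n = 2 each), and it fell by 27.8% (log2 fold change -0.47 ± 0.10 SE, 95% interval -0.69 to -0.25, edgeR adjusted p = 0.0243). The call rested on TYMP replicate 2, without which the log2 fold change of SLC1A5 was -0.34 (adjusted p = 0.196), and it was not made on log2(FPKM + 1) (-0.45, adjusted p = 0.112).

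SLC1A4, the paralog that carries alanine, serine and cysteine, had 86.6 and 75.9 CPM in the TYMP libraries, against 88.0 and 77.7 CPM in the NC libraries. The groups overlapped, and the log2 fold change of SLC1A4 was -0.03 (95% interval -0.25 to 0.20, edgeR adjusted p = 0.944). Per length, the FPKM of SLC1A5 was 5.09 and 4.78 times that of SLC1A4 in the TYMP libraries, against 6.77 and 6.67 times in the NC libraries, a difference between the pair that was not tested.

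SLC38A1 and SLC38A2 are sodium-coupled importers of glutamine, alanine and other small neutral amino acids. SLC38A1 had 507 and 547 CPM in the TYMP libraries, against 581 and 628 CPM in the NC libraries. The groups did not overlap, but SLC38A1 was not called (log2 fold change -0.20, 95% interval -0.37 to -0.03, unadjusted p = 0.0271 and adjusted p = 0.25 in edgeR). SLC38A2, known for its induction when amino acids are short, had 646 and 724 CPM in the TYMP libraries, against 692 and 767 CPM in the NC libraries. These overlapped, with a log2 fold change of -0.09 (95% interval -0.28 to 0.09, adjusted p = 0.701).

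SLC7A1, the main importer of arginine and lysine, had 630.2 and 588 CPM in the TYMP libraries, against 639 and 613 CPM in the NC libraries. The log2 fold change of SLC7A1 was -0.04, and its 95% interval of -0.21 to 0.13 was the narrowest of the 10 (edgeR adjusted p = 0.877). SLC6A9, a glycine importer, had 78.4 and 72.2 CPM in the TYMP libraries, against 81.8 and 68.2 CPM in the NC libraries, with a log2 fold change of 0.0049 (95% interval -0.23 to 0.24, adjusted p = 0.991). The NC libraries lay on both sides of the TYMP libraries. Annotated exons of CCDC24, on the opposite strand, overlap those of SLC6A9, and CCDC24 had 225 and 219 reads in the TYMP libraries, against 166 and 177 in the NC libraries.

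SLC43A1, a facilitative carrier of leucine and other neutral amino acids, was close to the limit of detection. It had 14 and 15 reads in the TYMP libraries, against 30 and 24 in the NC libraries. The groups did not overlap, and the log2 fold change of SLC43A1 of -0.88 was larger in size than that of SLC7A11. With so few reads its 95% interval ran from -1.76 to 0.0056 and it was not called (edgeR adjusted p = 0.344), an interval that also holds the log2 fold change of SLC7A11.

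**Figure D2:**
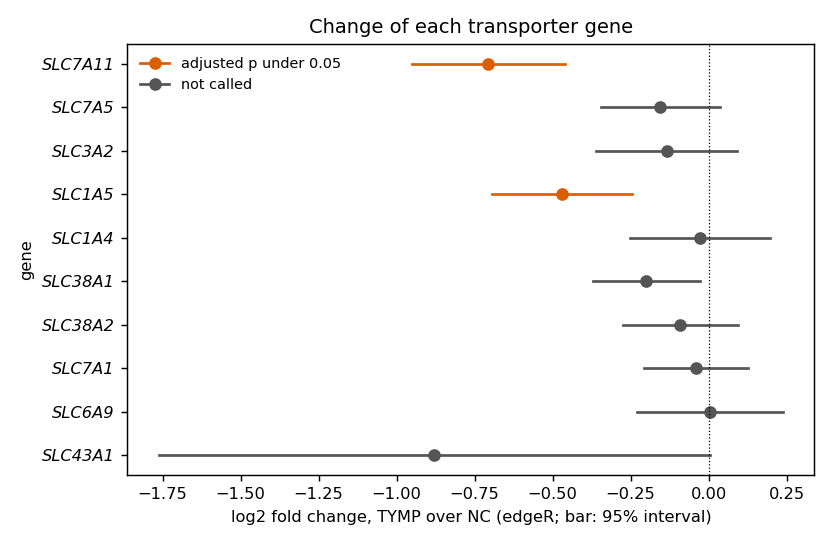
Log2 fold change of each transporter gene, TYMP over NC, from edgeR (x axis) with its 95% interval as a bar, by gene (y axis). SLC7A11 (-0.71) and SLC1A5 (-0.47) passed the adjusted p, the interval of SLC38A1 also lay below 0 without passing, and SLC43A1 had the widest interval.

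The groups did not overlap, with both TYMP libraries below both NC libraries, in 4 of the 10 genes, namely SLC7A11, SLC1A5, SLC38A1 and SLC43A1, beside 21.8% of all tested genes. In 0 of the 10 did both TYMP libraries lie above both NC libraries, beside 3140 of all 14380 tested genes. The upper and lower bounds of the intervals of the genes not called limit how far each differed between these libraries, whose spread may be technical. Of these 8, SLC7A5, SLC3A2, SLC7A1, SLC1A4, SLC38A1, SLC38A2 and SLC6A9 had lower bounds between -0.37 and -0.21 and upper bounds between -0.03 and 0.24, which do not reach the log2 fold change of SLC7A11. An interval that includes 0 does not show that a gene stayed the same.

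The order of levels per length was nearly the same in both groups. SLC7A5 led with 436 ± 38.3 FPKM in TYMP and 479 ± 35.3 FPKM in NC (SD, n = 2 each), and it made up between 47.4% and 50.3% of the summed FPKM of the 10 genes in each library. SLC3A2 followed with 123 ± 5.94 FPKM in TYMP and 134 ± 22.5 FPKM in NC, then SLC38A2 with 106 ± 10.1 FPKM in TYMP and 111 ± 8.79 FPKM in NC. In the NC libraries SLC3A2 had 149.8 and 118 FPKM and SLC38A2 had 105 and 117 FPKM, so these neighbours came within 1 FPKM of each other without overlapping, and their means differed by about the SD of SLC3A2. SLC7A1 and SLC1A5 could not be separated in NC, at 80.8 ± 1.94 and 79.6 ± 7.28 FPKM, whereas in TYMP SLC7A1 had 79.5 ± 2.75 and SLC1A5 58.1 ± 7.19 FPKM, in the range of SLC38A1 (52.9 ± 3.56 FPKM). SLC6A9, SLC7A11 and SLC1A4 formed a lower tier between 7.96 and 15.6 FPKM. In that tier SLC7A11 was ninth in TYMP, below SLC1A4 (8.76 ± 1.14 against 11.8 ± 0.924 FPKM), and eighth in NC, above it (14.1 ± 2.12 against 11.8 ± 0.967 FPKM). SLC43A1 was lowest at 0.2496 ± 0.00661 FPKM in TYMP and 0.455 ± 0.0643 FPKM in NC.

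**Figure D3:**
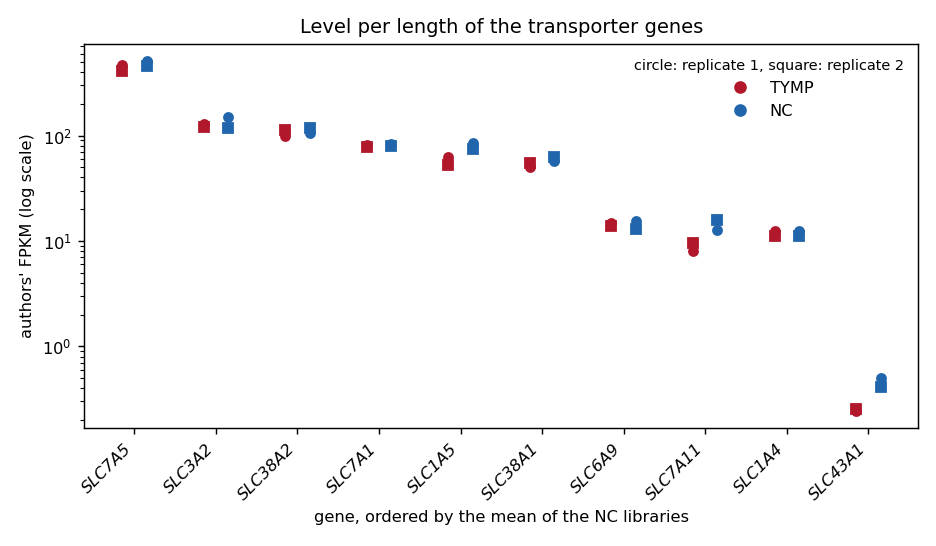
The authors' FPKM of each transporter gene on a log scale (y axis), with genes ordered by their NC mean (x axis), TYMP libraries left of NC libraries, circles for replicate 1 and squares for replicate 2. SLC7A5 stands above all others, and SLC7A11 lies below SLC1A4 in the TYMP libraries and above it in the NC libraries.

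Promoter sequence was available from RefSeq (GRCh38.p14) for 9 of the 10 genes, all but SLC7A11, in 16 windows from 250 bases before to 50 after an annotated start. They were searched on both strands for TGATGNAA, the core of the C/EBP-ATF response element that ATF4 binds, and for TGACNNNGC, the core of the antioxidant response element that NRF2 binds. No match of one motif overlapped a match of the other in these windows. TGATGNAA occurred in 5 of the 16 windows and in 5 genes, beside 3.62% of all 35116 windows, and TGACNNNGC in 4 of the 16 windows and in 4 genes, beside 13.3% of all windows. The stretches below hold matches that begin before an annotated start of SLC1A5, which fell, and of SLC1A4, SLC38A1 and SLC3A2, which were not called. Each is written 5′ to 3′ on the strand of its gene, with the match in capitals.
SLC1A5 at chr19:46784884-46784951 (minus strand), TGATGNAA beginning 97 bases before the start: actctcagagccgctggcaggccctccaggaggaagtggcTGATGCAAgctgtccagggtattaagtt
SLC1A4 at chr2:64989352-64989399 (plus strand), TGATGNAA read on the opposite strand, beginning 7 bases before the start: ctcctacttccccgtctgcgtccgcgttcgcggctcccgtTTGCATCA
SLC38A1 at chr12:46266513-46266560 (minus strand), TGATGNAA beginning 4 bases before the start: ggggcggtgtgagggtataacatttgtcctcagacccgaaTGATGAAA
SLC1A5 at chr19:46787376-46787444 (minus strand), TGACNNNGC read on the opposite strand, beginning 111 bases before the start: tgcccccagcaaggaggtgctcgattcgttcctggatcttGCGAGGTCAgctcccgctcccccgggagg
SLC3A2 at chr11:62881622-62881690 (plus strand), TGACNNNGC beginning 37 bases before the start: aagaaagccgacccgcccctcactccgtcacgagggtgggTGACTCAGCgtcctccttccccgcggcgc
In SLC1A5 the matches lie at different annotated starts, both inside the annotated gene (46774883 to 46788594). Its remaining window, 46788595 to 46788844, adjoins the 5′ end of that gene and held neither motif. The stretches shown for SLC1A4, SLC38A1 and SLC3A2 also lie inside their annotated genes. SLC3A2 and SLC7A1 also held TGATGNAA, after the start, and SLC7A1 and SLC7A5 held TGACNNNGC. A match describes the letters of these windows and does not show that a factor bound there, and genes with a match included both SLC1A5 and genes that were not called.

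Among 32 other plasma membrane amino acid transporters, 11 had enough reads to be tested and 0 were called by edgeR, by DESeq2 or by limma-voom, with 3 at an unadjusted p under 0.05 in edgeR. Over all tested genes 3.32% were called and 14.7% had such a p, so 0 calls among 11 genes lies near the background. Their median log2 fold change was -0.07, beside -0.0051 over all tested genes. SLC1A3, a glutamate importer, had 166 and 162 CPM in the TYMP libraries, against 126 and 141 CPM in the NC libraries (log2 fold change 0.30 ± 0.09 SE, adjusted p = 0.0972). When single libraries were left out in turn, SLC1A3 was called without NC replicate 2 and in none of the other 3 fits. SLC7A6, another light chain of SLC3A2 that exchanges cationic for neutral amino acids, had 28.3 and 29.7 CPM in the TYMP libraries, against 38.8 and 35.6 CPM in the NC libraries (log2 fold change -0.36 ± 0.12 SE, adjusted p = 0.137). Of 6 tested transporters of the lysosome, edgeR, DESeq2 and limma-voom called 0, with 1 at an unadjusted p under 0.05 in edgeR, SLC38A7, a lysosomal glutamine and asparagine exporter (29.7 and 28.4 CPM in TYMP, against 39.3 and 33.8 CPM in NC; adjusted p = 0.198). SLC38A9, the arginine-sensing carrier, had 28.8 and 34.4 CPM in the TYMP libraries, against 25.6 and 30.3 CPM in the NC libraries (adjusted p = 0.613).

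Downstream of cystine import, 1 of 19 tested genes of cystine use and glutathione fell, 0 rose and 18 were not called (median log2 fold change -0.08). With 1.23% of all tested genes called lower, a single call among 19 is near the background and is not a result about the list. The gene that fell was CHAC1, which degrades glutathione, at 6.21 and 3.95 CPM in the TYMP libraries, against 16.4 and 17.5 CPM in the NC libraries (log2 fold change -1.74 ± 0.21 SE, edgeR adjusted p = 0.000413). CHAC1 also belongs to the ATF4 list, of which 7 of 27 tested genes fell, 0 rose and 20 were not called, beside 1.23% of all tested genes called lower (median log2 fold change -0.38, beside -0.0051 over all tested genes). These counts depended on the processing. On log2(FPKM + 1) and log2(FPKM + 0.1), limma called 5 of 23 lower and 0 higher, beside 63 and 64 of all 10936 genes called lower. With the replicate number as a block, edgeR called 13 of 27 lower and 2 higher, beside 1044 lower and 980 higher of all 14380 genes. STC2, a secreted glycoprotein, had 62.7 and 58.6 CPM in the TYMP libraries, against 106 and 104 CPM in the NC libraries (adjusted p = 0.000368). MTHFD2, a mitochondrial folate enzyme, had 58.5 and 62.3 CPM in the TYMP libraries, against 93.5 and 102 CPM in the NC libraries (adjusted p = 0.00143). PPP1R15A, which directs the dephosphorylation of the translation factor eIF2, had 41.2 and 35.3 CPM in the TYMP libraries, against 67.5 and 60.3 CPM in the NC libraries (adjusted p = 0.00288). ATF4 itself, named after its values were seen, had 268 and 255 CPM in the TYMP libraries, against 359 and 343 CPM in the NC libraries (log2 fold change -0.43 ± 0.08 SE, adjusted p = 0.00833), a call lost without TYMP replicate 2 (adjusted p = 0.0687). ASNS, asparagine synthetase, also named after its values were seen, had 16 and 16 reads in the TYMP libraries, against 14 and 31 in the NC libraries, too few to show such a change. Genes of the list with many more reads were also not called. PHGDH and DDIT4, likewise named after their values were seen, had log2 fold changes of 0.18 and 0.15 (edgeR adjusted p = 0.461 and 0.486). Over the 27 tested genes, 22 log2 fold changes were below 0 and 5 were above.

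Of the cytosolic aminoacyl-tRNA synthetases, which load amino acids onto their tRNAs, 3 of 19 tested genes fell, 0 rose and 16 were not called, beside 1.23% of all tested genes called lower (median log2 fold change -0.18, beside -0.0051 over all tested genes). GARS1, for glycine, had 388 and 374 CPM in the TYMP libraries, against 509 and 509 CPM in the NC libraries (log2 fold change -0.42 ± 0.08 SE, edgeR adjusted p = 0.00704). TARS1, for threonine, had 390 and 382 CPM in the TYMP libraries, against 491 and 476 CPM in the NC libraries (adjusted p = 0.0325). CARS1, for cysteine, had 20.6 and 23.6 CPM in the TYMP libraries, against 30.7 and 32.4 CPM in the NC libraries (adjusted p = 0.0441). None of these synthetase calls was made on FPKM, and without TYMP replicate 2 edgeR called 0 of the 19. Fits that left out 1 library also differed in how many of all genes they called, so such counts are not a result about the list. Without TYMP replicate 1 the log2 fold changes were -0.44 for GARS1, -0.33 for TARS1 and -0.41 for CARS1. Without NC replicate 2 they were -0.42, -0.35 and -0.48.

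Of 23 tested genes of amino acid sensing and the mTORC1 kinase complex, 1 rose, 0 fell and 22 were not called (median log2 fold change -0.04). With 2.09% of all tested genes called higher, a single call among 23 is near the background and is not a result about the list. SESN3, a sestrin that restrains mTORC1, rose to 37.9 and 43.5 CPM in the TYMP libraries, against 19.3 and 23.7 CPM in the NC libraries (log2 fold change 0.92 ± 0.13 SE, edgeR adjusted p = 0.00185). SESN3 was called under each of the 13 alternative settings.

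**Figure D4:**
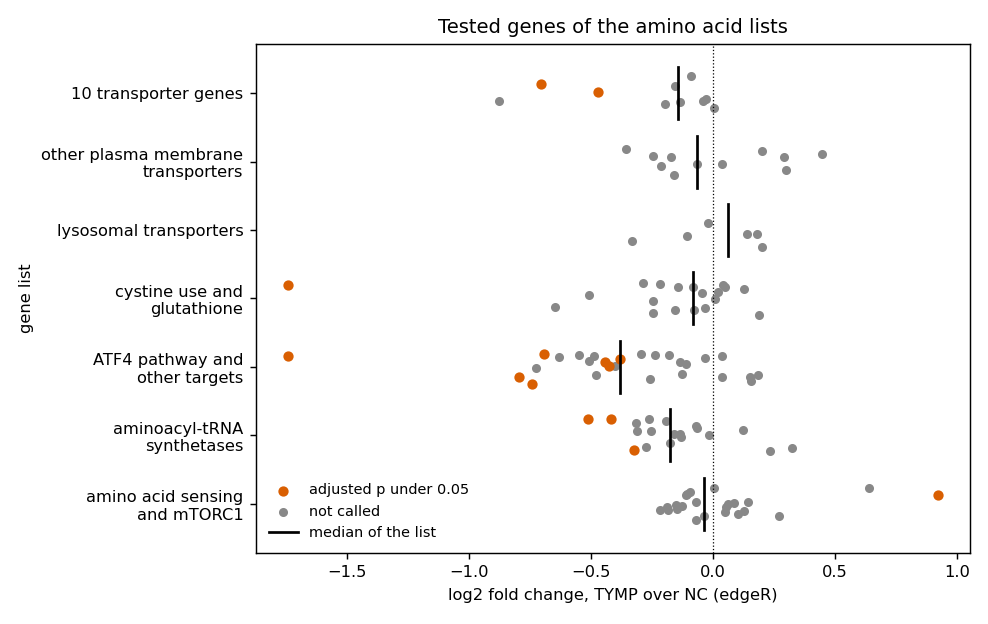
Log2 fold change, TYMP over NC, from edgeR (x axis) of the tested genes of each list (y axis), with 1 point per gene, called genes in orange and a black line at the list's median. The ATF4 list has its median at -0.38 and 7 called genes, all lower, and the other plasma membrane transporters have 0 called genes.

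The genes whose profile over the 4 libraries lay closest to that of SLC7A11 were EIF5A2, a paralog of the translation factor eIF5A, SERPINB2, an inhibitor of plasminogen activators, and PHLDA1. They had the smallest root mean square difference of centred log2 CPM from SLC7A11 among 7418 genes that averaged 20 CPM or more, at 0.034, 0.038 and 0.053. SERPINB2 had 208 and 241 CPM in the TYMP libraries, against 310 and 397 CPM in the NC libraries, the same arrangement as SLC7A11 with the highest value in NC replicate 2. The likeness rests on 4 libraries and is a description only.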

How the data were processed

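RNA of HaCaT cells was measured in 2 TYMP and 2 NC libraries. Libraries were made from 1.5 µg RNA with a NEBNext Ultra kit, per the labels' protocols. The deposited table gives raw read counts per gene and, per the file headers, FPKM. HISAT2, HTSeq 0.13.5 and GRCh38 are named in the submitters' processing notes, without roles. The sources used here give no annotation release. Gene positions came from GENCODE on GRCh38. No value column was left unmatched.

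The counts were tested with edgeR 4.0.16 in R 4.3.3 (filterByExpr, TMM, robust quasi-likelihood F test, group as the only term, Benjamini-Hochberg over 14380 genes). Standard errors and 95% intervals come from that fit. Alternatives used DESeq2 1.42.0, limma 3.58.1 (voom, or log2(FPKM + 1) and log2(FPKM + 0.1) where FPKM averaged 1 or more), other scalings and filters, the replicate number as a block, and each library left out. A lone library was then taken to vary as the other group did. The procedure was tested on simulated counts whose changes were larger than those of SLC7A11 and SLC1A5, so that test does not cover changes of their size. Libraries of a group differed by more than sampling noise.

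The members and lists were chosen with earlier results of these data known. Named genes are the members, their near copies and overlapping genes (1 item is not reported here), and for each list up to 4 called genes by smallest p, or 2 where none was called.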

Additional observations from a re-analysis of the deposited data

How the results depend on the processing

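Of the 10 transporter genes, 2 were called lower with edgeR and also with DESeq2, limma-voom, other scalings and other count filters, and 1 or 2 when single libraries were left out. On log2(FPKM + 1) and log2(FPKM + 0.1), limma called 0 of 9, with SLC7A11 at -0.63 and -0.68 and SLC1A5 at -0.45 and -0.46; the cause was not tested. The log2 fold change of SLC7A11 stayed between -0.84 and -0.56 over all 13 settings. Without single libraries, that of SLC1A5 ranged from -0.61 to -0.34, of SLC7A5 from -0.26 to -0.057, of SLC38A2 from -0.18 to -0.0039, of SLC3A2 from -0.31 to 0.057, of SLC1A4 from -0.12 to 0.066, of SLC7A1 from -0.084 to 0.0049 and of SLC6A9 from -0.12 to 0.14 (-0.00083 with no filter). The other plasma membrane transporters had 0 or 1 call without single libraries.

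Over all genes, 478 were called, against 732 with no filter and 215 and 210 on FPKM with pseudocounts of 1 and 0.1. With the replicate number as a block, 2024 genes were called, 4 of the 10 transporter genes (SLC7A5 at -0.16 and SLC38A1 at -0.20 besides) and 3 of the other transporters. The labels do not say that the numbers mark a shared batch. Differences between replicates 1 and 2 correlated between the groups over 14380 genes (r = 0.11), and they had the same sign in both groups for 9 of the 10 transporter genes and 64.9% of all tested genes.

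SLC43A1, with at most 30 reads per library, is limited by depth.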
